A study of Mus musculus with 48 samples.

Results

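The Slc22 organic ion transporters followed here are 9 mouse genes, Slc22a3, Slc22a5, Slc22a7, Slc22a15, Slc22a17, Slc22a18, Slc22a23, Slc22a28 and Slc22a30. They were chosen by name, with earlier results of these data in view, out of 25 Slc22 genes measured among 46517 genes. Their levels, fold changes and calls in fits across all genes are therefore a description and no independent evidence of a difference, and adjusted p-values are printed only for genes outside the choice.

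All groups were labelled as WT Albino C57BL/6N mice. Explants were liver spheroids that had engrafted on the iris in the anterior chamber of the eye, taken 2 months post-tx together with surrounding iris (n = 5, numbered 1, 2, 4, 5 and 6). Naïve iris carried no graft (n = 3). Endogenous liver came from donor mice (n = 3), and the hepatocyte preparations were primary cells from such livers, enriched for hepatocytes after collagenase perfusion (n = 3). In vitro spheroids were made from primary hepatocytes and were never transplanted (n = 2). The study used adult mice of both sexes, and the labels do not say whether the samples of a group came from separate animals, so that p-values measure the spread between these samples only.

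Slc22 proteins are membrane carriers that move organic cations, organic anions and zwitterions such as carnitine across the plasma membrane. In liver, organic cation and organic anion carriers of the sinusoidal membrane take up drugs, nutrients and metabolites from blood, and the pumps of the canalicular membrane export many of the products to bile. Mice carry an expanded set of anion carrier genes side by side on chromosome 19, to which Slc22a28 and Slc22a30 belong.

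Totals were 2718518 to 6789648 counts per sample. The 15 hepatocyte markers summed to 19890 to 21180 TPM (a level scaled to gene length and to the sum over all genes) in liver and 20560 to 25100 in hepatocyte preparations. They summed to 16090 to 17670 in in vitro spheroids, 7013 to 10130 in explants and 2026 to 2429 in iris. All 15 were at a mean of 1 TPM or more in every group, iris included. Liver 1 stood apart from livers 2 and 3 in several members, and fold changes and percentages against liver are given with and without it.

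Promoter sequences are shown for 4 neighbouring genes of chromosome 19, because 2 of them, the members Slc22a28 and Slc22a30, were low in in vitro spheroids while the other two, Slc22a27 and Slc22a29, were high there. Each holds 250 bases before and 50 after the RefSeq start site in GRCm38.p6, is written 5′ to 3′ and lies on the minus strand. Slc22a27 is at chr19:7965978-7966277, Slc22a28 at chr19:8131933-8132232, Slc22a29 at chr19:8218851-8219150 and Slc22a30 at chr19:8405056-8405355. Capitals mark matches on either strand to CAAAGT (an HNF4 half-site), GTTAAT (an HNF1 half-site), TTCNNNGAA (the STAT5 consensus) or ATTGAT (an HNF6 core), the 4 motifs searched.
Slc22a28: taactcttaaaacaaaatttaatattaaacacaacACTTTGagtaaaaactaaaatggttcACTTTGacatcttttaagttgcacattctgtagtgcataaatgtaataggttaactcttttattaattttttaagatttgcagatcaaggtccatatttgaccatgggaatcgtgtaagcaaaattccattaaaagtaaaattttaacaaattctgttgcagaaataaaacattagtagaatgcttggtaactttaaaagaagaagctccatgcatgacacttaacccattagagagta
Slc22a30: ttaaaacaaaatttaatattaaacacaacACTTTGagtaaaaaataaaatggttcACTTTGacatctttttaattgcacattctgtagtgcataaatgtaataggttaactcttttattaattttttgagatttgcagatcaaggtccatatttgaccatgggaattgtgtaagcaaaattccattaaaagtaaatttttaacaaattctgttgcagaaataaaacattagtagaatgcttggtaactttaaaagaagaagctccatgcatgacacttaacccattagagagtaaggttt
Slc22a29: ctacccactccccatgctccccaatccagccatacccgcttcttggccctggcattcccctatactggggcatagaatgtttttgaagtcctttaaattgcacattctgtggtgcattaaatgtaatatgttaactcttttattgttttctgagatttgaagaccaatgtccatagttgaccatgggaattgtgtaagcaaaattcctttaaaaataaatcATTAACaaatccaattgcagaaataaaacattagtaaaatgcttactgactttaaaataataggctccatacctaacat
Slc22a27: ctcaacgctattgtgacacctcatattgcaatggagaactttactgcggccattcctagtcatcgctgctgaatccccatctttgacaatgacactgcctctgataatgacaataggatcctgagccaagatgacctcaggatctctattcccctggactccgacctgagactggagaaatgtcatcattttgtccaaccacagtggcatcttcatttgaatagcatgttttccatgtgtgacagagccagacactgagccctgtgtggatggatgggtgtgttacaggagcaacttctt

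The promoters of Slc22a28 and Slc22a30 had identical bases in 94.1% of aligned columns. That of Slc22a29 was identical to them in 68% and 68.1%, and that of Slc22a27 in 49.3% and 49.6%. To promoters of Slc22a18, Slc22a5 and Slc22a4, on other chromosomes, that of Slc22a27 was identical in 47% to 51.7%. Those of Slc22a28 and Slc22a30 were identical to the same 3 in 39.7% to 48.4%. Whether Slc22a27 was more like its neighbours than like these thus depends on the promoter taken as the measure. Slc22a28 and Slc22a30 each held 2 matches to CAAAGT, a motif found in 14.4% of 32851 promoters of this length. Among the other members, Slc22a3 held 3 matches to CAAAGT. Slc22a5, Slc22a15, Slc22a17, Slc22a18 and Slc22a23 held 0, and the part of these motifs in the levels was not tested. Slc22a29 held 1 match to GTTAAT, which 7.1% of promoters hold. Slc22a27 held none of the 4 motifs, of which TTCNNNGAA was found in 8.3% and ATTGAT in 7.54% of all promoters.

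The transcripts of this cluster also resemble each other, which bears on how reads could be assigned. In GENCODE M21, 53.9% of the 50-base windows of Slc22a28 occurred in another gene, most often in Slc22a30, and 34.2% of those of Slc22a30 did so, most often in Slc22a28. Slc22a5 shared 26.3% of its windows, mainly with Slc22a21. Reads that mapped to several places were not counted, so the levels of these 3 members are uncertain. The 6 other members shared under 1% of their windows with another gene.

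Slc22a7, an organic anion carrier (Oat2) of the hepatocyte sinusoidal membrane, lies at chr17:46432185-46438477 on the minus strand. In liver it measured 21.9, 176 and 157 TPM in samples 1, 2 and 3. The hepatocyte preparations had 88.6, 51.9 and 162 TPM, and the in vitro spheroids 3.79 and 2.81. Liver and hepatocyte preparations overlapped, and both spheroid samples lay below all of them. The 3 irises had 0.299, 0.959 and 0.302 TPM, at no more than 3 counts each. Explants before correction had 0.814, 7.90, 5.35, 8.11 and 10.01 TPM in samples 1, 2, 4, 5 and 6. Explant 1 lay within the iris range, and the other 4 lay above it.

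Slc22a28, an anion carrier gene of the chromosome 19 cluster at chr19:8062209-8131982, had 1.04, 10.9 and 12.5 TPM in livers 1 to 3. The hepatocyte preparations had 10.1, 27.8 and 21.1 TPM. Both spheroid samples had 0 counts, which allows up to 3 counts per sample, and the hepatocyte mean was at least 17.7-fold higher than that floor. Slc22a28 was at 0 to 0.299 TPM in iris and at 0, 0.255, 0, 0.427 and 1.19 TPM in explants, with at most 5 counts in any of these samples. Its levels outside liver and hepatocyte preparations were thus near the limit of detection at this depth, and intervals and floors cover counting error only.

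Slc22a30, at chr19:8335371-8405111, was the more abundant of these 2 cluster members. It had 39.1, 65.2 and 70.1 TPM in livers 1 to 3 and 73.4, 105 and 109 TPM in the hepatocyte preparations. All 3 hepatocyte preparations lay above all 3 livers. In vitro spheroids had 6.09 and 6.93 TPM. Explants had 2.75, 8.35, 5.07, 5.72 and 12.9 TPM and irises 0.713, 0.762 and 0.180. Every explant lay above every iris, and the explants spread around both spheroid samples before iris RNA was taken into account.

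Slc22a18, an orphan carrier gene in an imprinted region at chr7:143473721-143499334, was the most abundant member in liver. It measured 496, 347 and 361 TPM in liver, 335, 358 and 340 in hepatocyte preparations and 435 and 398 in in vitro spheroids. Spheroids lay within the liver range and above the hepatocyte preparations. Iris had 30.7, 26.2 and 27.5 TPM, and explants 75.1, 159, 78.1, 120 and 181. The explants stood between iris and liver with no overlap on either side.

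Slc22a3, the organic cation carrier Oct3 at chr17:12419972-12507704, was a low-level gene. Livers had 10.7, 8.44 and 6.59 TPM. The hepatocyte preparations had 1.20, 15.9 and 2.57 TPM, so that preparation 2 lay above all livers and the other 2 below them. In vitro spheroids had 0.651 and 0.460 TPM, explants 0 to 0.418 and irises 0 to 0.183, at no more than 3 counts in any of these samples. Pooled over samples, the hepatocyte preparations had 12.2 times the spheroid level, with a 95% exact counting interval of 5.03 to 38.5. Preparation 2 held 70 of the 86 pooled hepatocyte counts, and the interval leaves out the spread between preparations.

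Slc22a23, an orphan carrier gene at chr13:34179158-34345182, had 31.9, 49.6 and 39.96 TPM in liver and 28.9, 39.1 and 21.7 in hepatocyte preparations, which overlapped. In vitro spheroids had 19.8 and 9.70 TPM, below all of these. Irises had 7.89, 7.54 and 9.50 TPM and explants 8.52, 10.6, 9.25, 7.04 and 9.81, again overlapping. Slc22a15, another orphan carrier gene at chr3:101855776-101924453, ranged only from 1.44 to 4.17 TPM over all 16 samples. It had 2.20, 3.76 and 3.66 TPM in liver, 3.79 to 4.17 in hepatocyte preparations, 2.40 and 1.75 in spheroids, 1.44 to 2.26 in explants and 1.44 to 2.11 in iris. Only the hepatocyte preparations were clear of all other groups in this order.

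Slc22a5, the sodium-coupled carnitine carrier Octn2 at chr11:53864542-53891660, and Slc22a17, a receptor for the siderophore-binding protein lipocalin-2 at chr14:54906727-54913132, had the opposite order. Slc22a5 measured 64.1, 58.9 and 59.5 TPM in iris and 60.97, 55.3, 66.7, 50.5 and 48.6 in explants. Livers had 31.1, 18.6 and 43.2 TPM, hepatocyte preparations 28.95, 28.2 and 9.66 and spheroids 19.6 and 38. Iris and explants thus lay above the other groups, which overlapped with each other. Slc22a17 measured 171, 180 and 158 TPM in iris and 160, 145, 168, 170 and 102 in explants. It was at 3.34, 0.307 and 1.15 TPM in liver, 1.22 to 1.73 in hepatocyte preparations and 4.31 and 0.702 in spheroids. No liver-derived sample without iris came near the iris level of Slc22a17.

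**Figure D1:**
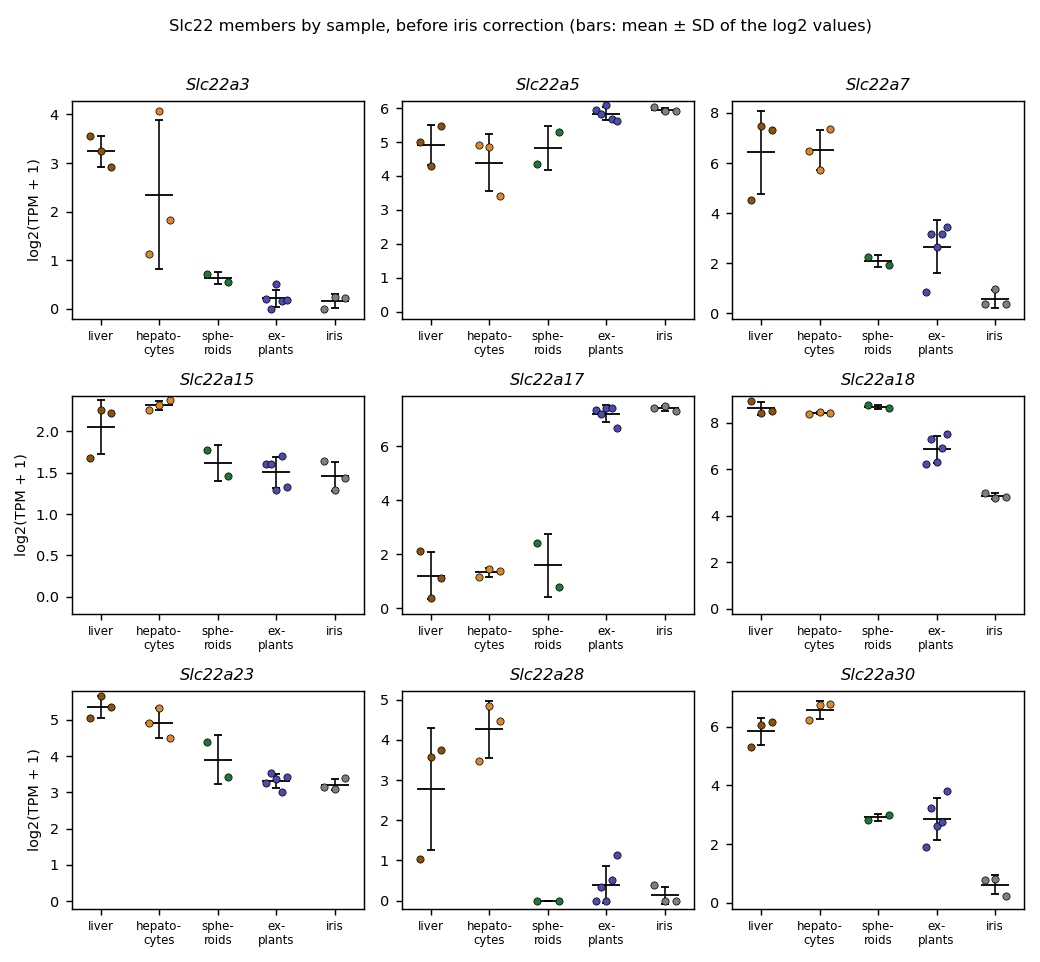
Levels of the 9 members as log2(TPM + 1) on the vertical axis in each sample of the 5 groups, before iris correction, with points for samples and bars for mean ± SD. Slc22a5 and Slc22a17 were highest in iris and explants. Slc22a3, Slc22a7, Slc22a15, Slc22a23, Slc22a28 and Slc22a30 had lower mean levels in spheroids than in hepatocyte preparations and in liver. For Slc22a28, liver 1 had 3 counts and both spheroid samples had 0.

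The genes whose log2(TPM + 1) over the 16 samples was most like that of each member were looked up among 19450 genes. These correlations describe 16 points that share 5 tissues and carry no test. Slc22a18 was most like Nr1i2, which encodes the xenobiotic receptor PXR (Pearson r = 0.996), and Slc22a30 most like Keg1 (0.992). Slc22a7 was most like Ugt2b38 (0.970), Slc22a28 most like Elovl3 (0.980) and Slc22a17 most like Lgals3bp (0.996). For Slc22a3, Slc22a5, Slc22a15 and Slc22a23 the first genes were Slc16a10 (0.936), Hfe (0.932), Gm16551 (0.960) and Akap1 (0.972). Of the pairs of members, Slc22a7 and Slc22a30 were the most alike (0.960), and Slc22a28 and Slc22a30 had r = 0.890.

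Iris and liver were compared to learn which tissue each member marks in an explant that holds both. Fold changes come from edgeR's quasi-likelihood fit of counts, and calls required a p of less than 0.05 after Benjamini-Hochberg adjustment with a log2 difference beyond 1 in either direction. Of 8 members tested, 6 were called lower and 1 higher in iris, where 22.1% and 29.7% of all 15459 genes were. On the log2 scale Slc22a7 differed by −8.63 ± 1.38 (SE), Slc22a30 by −7.55 ± 0.42, Slc22a3 by −6.75 ± 0.53, Slc22a18 by −4.71 ± 0.15, Slc22a23 by −3.18 ± 0.21 and Slc22a15 by −1.77 ± 0.29. Slc22a17 was higher in iris by 5.83 ± 0.33, and by 6.84 ± 0.27 without liver 1. Without liver 1, Slc22a7 differed by −9.17 ± 0.23, Slc22a30 by −7.83, Slc22a3 by −6.65, Slc22a18 by −4.60, Slc22a23 by −3.38 and Slc22a15 by −2.03.

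Slc22a5 depended on how the libraries were scaled. Its groups did not overlap in TPM, yet its fitted log2 difference was 0.09 ± 0.24 with TMM scaling (0.02 ± 0.29 without liver 1) and 0.77 with library size alone, a scaling that moved the median of all genes by 0.68. Slc22a28 did not pass the filter on low counts here. Pooled over samples, liver had 92.8 times the iris level of Slc22a28, with a 95% exact counting interval of 16.1 to 3715. Without liver 1 it passed, at −7.23 ± 0.63 on the log2 scale.

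Among Slc22 genes outside the choice, Slc22a8, the organic anion carrier Oat3, had 62.5 to 89.7 TPM in iris and 0.405 to 1.402 in liver, a log2 difference of 5.74 ± 0.31 (edgeR, adjusted p = 1.3e-07). Slc22a21, a carnitine carrier next to Slc22a5, was higher in iris by 2.82 ± 0.58 on the log2 scale (edgeR, adjusted p = 0.0014). Slc22a4, a carrier of ergothioneine and carnitine, was not called (−0.89 ± 0.34, adjusted p = 0.038 by edgeR), though it was without liver 1.

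Hepatocyte preparations were compared with liver, the tissue they came from. None of 8 members tested was called by edgeR or by DESeq2, 1 had an unadjusted p under 0.05, and 2.71% of all 12236 genes were called in edgeR. With counts scaled by library size alone, Slc22a30 was the 1 member whose groups did not overlap (31.3% of all genes did not). In TPM, Slc22a15 did not overlap either, at 3.79 to 4.17 in hepatocyte preparations and at most 3.76 in liver. Slc22a30 differed by 0.86 ± 0.27 on the log2 scale, and by 0.61 ± 0.20 without liver 1. Slc22a28 differed by 1.39 ± 0.74, and by 0.84 ± 0.42 without liver 1. The fitted differences of the other 6 tested members lay between −0.34 and 0.44, and between −0.62 and 0.20 without liver 1. The number of genes called overall depended on single samples, each of which moved it by over 1.5 times when left out, from 5 without hepatocyte preparation 3 to 585 without preparation 1. Of 10 stellate cell and fibroblast markers 3 were called lower in the preparations, as were 3 of 10 macrophage, 2 of 10 endothelial and 3 of 4 tested cholangiocyte markers, and the part of this change in the members' levels was not tested.

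In vitro spheroids were compared with hepatocyte preparations to follow the members through culture. Of 8 members tested 5 were called lower and 0 higher, beside 8.93% and 8.04% of 12247 genes. Slc22a7 differed by −5.26 ± 0.72 on the log2 scale, and its mean TPM in spheroids was 3.27% of that in hepatocyte preparations. Slc22a30 differed by −4.21 ± 0.29 and stood at 6.78%. Slc22a23 differed by −1.37 ± 0.31 and Slc22a15 by −1.27 ± 0.26, at 49.3% and 52.3% of the hepatocyte mean. Slc22a28 is the fifth, with its 0 counts in spheroids. Slc22a3 stood at 8.48% but was not called (−3.81 ± 1.39), and DESeq2 called 6 members. That percentage rests mainly on hepatocyte preparation 2, which had 70 counts of Slc22a3, beside 6 and 10 in preparations 1 and 3. Macrophage markers summed to 767.9 to 912 TPM in spheroids and 207.1 to 384.4 in hepatocyte preparations, with 4 of 10 called higher and 0 lower. Of 10 endothelial markers 2 were called higher and 3 lower, at sums of 95.9 to 121.1 and 65.4 to 188 TPM, and 3 of 15 hepatocyte markers were called lower. Stellate cell and fibroblast markers summed to 377.9 to 424.6 and 196.9 to 251.2 TPM, with 1 of 7 tested called higher and 0 lower. Cholangiocyte markers summed to 95.3 to 366.5 and 33.9 to 48.2 TPM, with 1 of 2 tested called higher and 0 lower. Their part in the members' levels was not tested.

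Slc22a18 and Slc22a5 were not called. Their mean TPM was 121% and 129% of that in hepatocyte preparations, and their fitted log2 differences were −0.06 ± 0.17 and 0.07 ± 0.51. For Slc22a18 the sign depended on scaling, since library size alone gave 0.20. The call of Slc22a7 was lost without either spheroid sample, and that of Slc22a23 without spheroid sample 2 or with library size alone.

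Opposite directions met on chromosome 19. Slc22a27 had 84.4 and 223 TPM in spheroids and 1.85 to 3.25 in hepatocyte preparations. It was higher in spheroids by 5.68 ± 0.61 on the log2 scale (edgeR, adjusted p = 0.0021). Slc22a29 had 6.36 and 30.8 TPM in spheroids and at most 0.699 in hepatocyte preparations, a difference of 4.96 ± 0.99 (edgeR, adjusted p = 0.012, and 0.054 without spheroid sample 2). Slc22a26, the fifth gene of this row, had 0.258 and 0.273 TPM in spheroids and was not called (−3.13 ± 1.05, edgeR adjusted p = 0.060), though it was without hepatocyte preparation 3 or without a filter. Its promoter was identical to those of the other 4 in 47.6% to 54.9% of columns, and to those of Slc22a18, Slc22a5 and Slc22a4 in 40.6% to 46.1%. The promoter of Slc22a26 held 1 match each to TTCNNNGAA and ATTGAT and 0 to CAAAGT and GTTAAT. Slc22a27 and Slc22a29 share 29.9% and 28.7% of their windows with other genes, most with each other, so their single levels are uncertain.

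**Figure D2:**
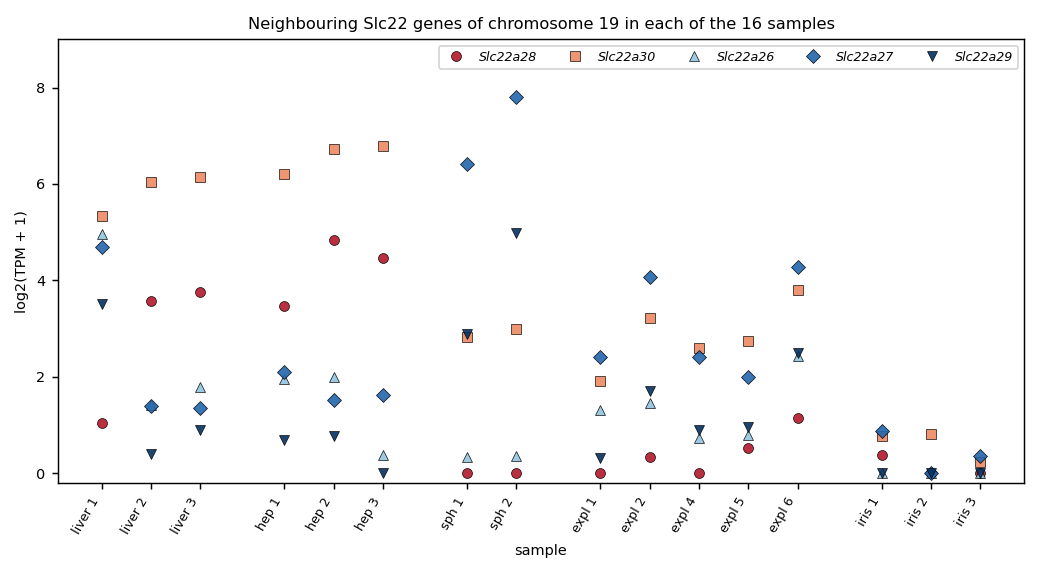
Levels of 5 neighbouring Slc22 genes of chromosome 19 as log2(TPM + 1) on the vertical axis, in each of the 16 samples along the horizontal axis. The members Slc22a28 and Slc22a30 were high in hepatocyte preparations and low in spheroids, Slc22a27 reached 223 TPM in a spheroid sample, and liver 1 had more Slc22a26, Slc22a27 and Slc22a29 and less Slc22a28 and Slc22a30 than livers 2 and 3.

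Liver 1 showed part of the same split within one group. Its Slc22a28 was at 1.04 TPM and its Slc22a7 at 21.9, and the mean of livers 2 and 3 was 11.2 and 7.62 times higher. Slc22a30 and Slc22a15 were 1.73 and 1.68 times higher in livers 2 and 3. In contrast, liver 1 had 30.004 TPM of Slc22a26, 24.9 of Slc22a27 and 10.4 of Slc22a29, which was 14.5, 15.7 and 17.7 times the mean of livers 2 and 3. Slc22a18 was 1.401 times higher in liver 1 and Slc22a5 lay between the other livers.

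Genes that are known to differ between the livers of male and female mice moved with these members. This was looked up after the values had been seen. Cyp4a12a, a male-biased gene, had 35.4 TPM in liver 1 against 336 and 348 in the other livers, and male-biased Hsd3b5 had 2.70 against 300 and 401. Female-biased Cyp2b9 had 307 TPM in liver 1 and at most 0.375 in the others, and Cyp2a4 had 248 and at most 1.64. All 4 Y-linked genes looked up, Ddx3y, Eif2s3y, Kdm5d and Uty, were expressed in all 16 samples, at 2.35 TPM at the lowest. Xist was at 0.117 TPM or less in the 3 livers and at 0.335 TPM or less in every sample. In spheroids 4 of 5 male-biased genes were called lower than in hepatocyte preparations and 2 of 3 tested female-biased genes higher, Cyp4a12a by −6.98 ± 0.28 and Cyp2b9 by 4.79 ± 0.64 on the log2 scale (edgeR, adjusted p = 1.4e-05 and 0.0016). The call of Cyp2b9 was lost in one fit of all 5 groups (edgeR, adjusted p = 0.15). Their part in the levels of the members was not tested.

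Explants were set against naïve iris to see which members exceed what the iris brings along. Of 7 members tested 3 were called higher and 0 lower, beside 5.68% and 0.292% of 16764 genes. Slc22a30 was higher by 3.75 ± 0.69 on the log2 scale, Slc22a7 by 3.70 ± 0.87 and Slc22a18 by 2.25 ± 0.41. Slc22a7 overlapped with iris through explant 1. Slc22a5 (−0.02 ± 0.09), Slc22a17 (−0.10 ± 0.12), Slc22a15 (0.18 ± 0.22) and Slc22a23 (0.22 ± 0.18) stood near the iris level. With any of the 3 irises left out, at most 1 of these 3 calls remained. In bulk tissue, fewer cells of a type and less RNA per cell cannot be told apart.

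Outside the choice, Slc22a27 had 2.99 to 18.4 TPM in explants and was higher than in iris by 4.62 ± 1.13 on the log2 scale (edgeR, adjusted p = 0.035), a call lost under 7 of 14 alternatives, with any iris or explant 2 left out among them. Slc22a8 had 37.3 to 80.3 TPM in explants and was not called (−0.25 ± 0.21, edgeR adjusted p = 0.48). All 15 hepatocyte markers and 9 of 16 tested transporter regulators were also called higher in explants.

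To compare the graft with liver, the iris contribution was subtracted from explant TPM. The iris share times the mean iris TPM was taken off, the rest was divided by the remaining share, and negative values were set to 0. The shares that return the deposited values were 82%, 68%, 81%, 72% and 59% for explants 1, 2, 4, 5 and 6. The study estimated its shares with CIBERSORT from signatures of iris and liver. The alternative shares from least squares were also fitted to mean iris and mean liver. Dividing by the remaining share thus scales explants toward liver, so a corrected level of liver genes near liver is partly set by the method. The deposited column of explant 4 followed another formula (16.4% of genes equal the one used here), and it was recalculated with the formula of the others.

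The corrected members stood at different fractions of the liver level. Mean levels in spheroids were 103.7%, 36.4% and 6.47% of liver for Slc22a18, Slc22a23 and Slc22a3, above those of corrected explants. For Slc22a15, Slc22a30, Slc22a7 and Slc22a28 they were 64.8%, 11.2%, 2.79% and 0%, below those of corrected explants. Slc22a18 had 289, 437, 291, 356 and 401 TPM in explants 1, 2, 4, 5 and 6, a mean of 88.4% of the liver mean and 100.2% of that of livers 2 and 3, and overlapped with liver. Slc22a30 had 12.8, 24.9, 24.3, 19.02 and 30.7 TPM, 38.4% of liver and 33.04% of livers 2 and 3, with every explant below every liver. Slc22a7 had 2.15, 23.6, 25.9, 27.6 and 23.7 TPM, 17.4% of liver and 12.4% of livers 2 and 3, and only the low liver 1 lay within its range. Slc22a28 had 0, 0.586, 0, 1.27 and 2.77 TPM, 11.3% of liver and 7.90% of livers 2 and 3, again overlapping only with liver 1.

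Slc22a3 had 0.322, 0, 1.69, 0.131 and 0.162 TPM after correction, 5.37% of liver and 6.14% of livers 2 and 3. Slc22a23 had 9.50, 15.4, 13.2, 3.78 and 11.96 TPM, 26.6% of liver and 24.1% of livers 2 and 3. Both lay below every liver. Slc22a15 overlapped with liver at 3.28, 2.68, 0.109, 3.55 and 1.17 TPM. For members that iris expresses as strongly as the explants do, correction widened the spread between explants. Slc22a5 went to 61.6, 43.6, 91.9, 23.9 and 30.9 TPM, and Slc22a17 to 115, 93.4, 162, 172 and 4.62. Corrected Slc22a17 thus differed from 4.62 to 172 TPM although its levels before correction were 102 to 170.

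The corrected values were compared with liver by limma on log2(TPM + 1), a scale that understates changes of low genes. Here and in the comparison with spheroids, the fit took the iris mean and the shares as known. Standard errors and p-values of corrected explants thus leave out the error of both, which all explants share for the iris mean. Of the 9 members 3 were called lower, Slc22a3 (−2.79 ± 0.53), Slc22a23 (−1.91 ± 0.47) and Slc22a30 (−1.35 ± 0.37), and 1 higher, Slc22a17 (4.93 ± 1.09), where 2.82% and 10.5% of 22878 genes were. Of 12 tested iris markers 4 were called higher and 0 lower in the same fit, with a median log2 difference of 1.51. The part of iris RNA in the corrected level of Slc22a17 was not tested. Slc22a7 and Slc22a28 were not called (−2.33 ± 0.91 and −2.03 ± 0.79), and without liver 1 they differed by −3.29 ± 0.88 and −2.91 ± 0.74. Slc22a18 differed by −0.18 ± 0.21, where the median of all genes was 0.59. Without liver 1, Slc22a3 differed by −2.64, Slc22a23 by −2.07, Slc22a30 by −1.61, Slc22a17 by 5.39 and Slc22a18 by −0.02. The number of members called was 0 with the deposited values and 2, 0 and 1 without livers 1, 2 and 3, and the call of Slc22a30 was lost under 8 of 14 alternatives.

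**Figure D3:**
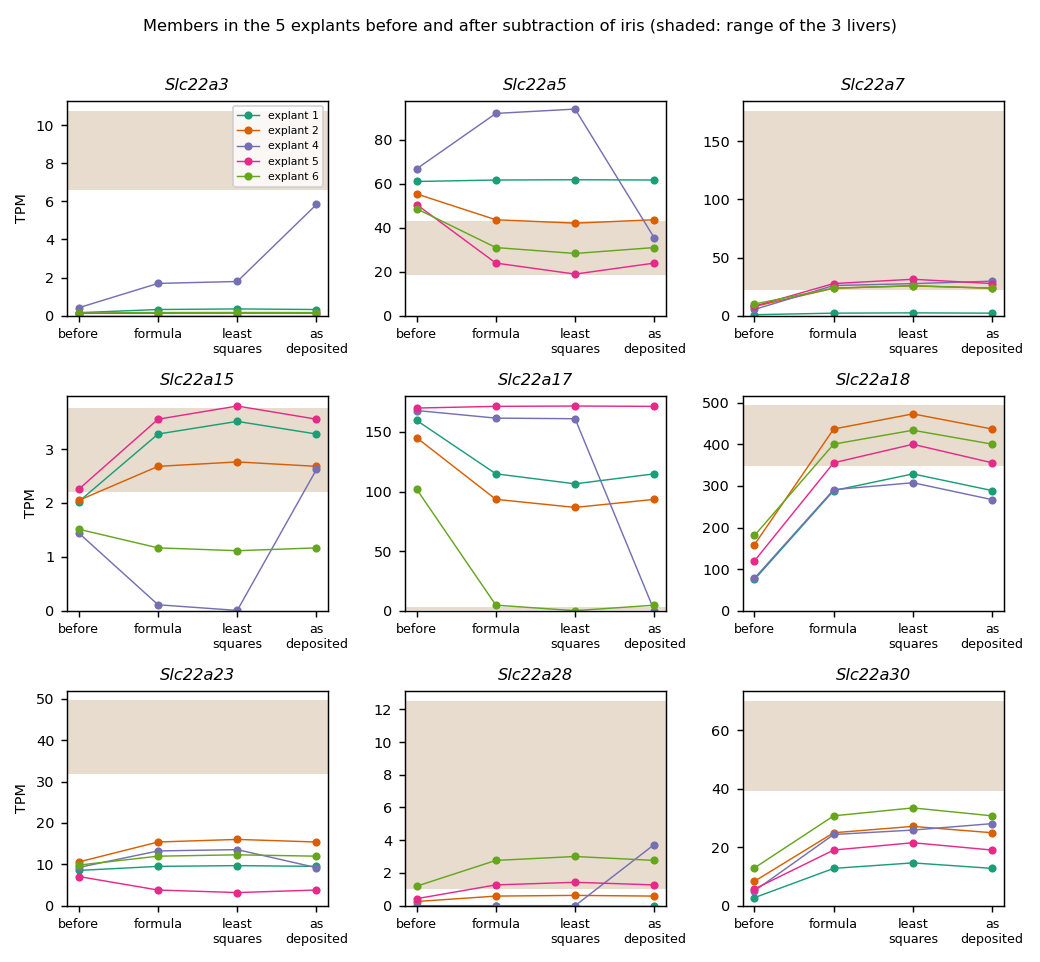
TPM of the 9 members in the 5 explants before correction, with the formula used here, with iris shares from least squares and as deposited, against the shaded range of the 3 livers. Slc22a18 entered the liver range in 3 explants, Slc22a30 stayed below it in all 5, and Slc22a17 in explant 4 was at 162 TPM with the formula and at 0 as deposited.

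Explants and in vitro spheroids started from the same kind of cells, and the corrected explants were compared with spheroids. None of 7 members tested was called by limma, 2 had an unadjusted p under 0.05, and 5.32% of 22706 genes were called. The median of all genes was 0.55 on the log2 scale. Slc22a7 was called without explant 1 and Slc22a17 without explant 6. Slc22a30 was at 12.8 to 30.7 TPM in explants and at 6.09 and 6.93 in spheroids, with no overlap, as for 25.7% of all genes (1.58 ± 0.51 on the log2 scale). Slc22a7 differed by 2.00 ± 0.94, and explant 1 lay below both spheroid samples. Slc22a17 did not overlap either (4.55 ± 1.31), while Slc22a18 (−0.25 ± 0.23), Slc22a23 (−0.46 ± 0.67), Slc22a15 (−0.13 ± 0.78) and Slc22a5 (0.70 ± 0.58) did. Before correction Slc22a30 differed from spheroids by −0.05, and its higher level after correction came with the division by the remaining share, which raised explant 1 from 2.75 to 12.8 TPM. Slc22a27 was lower in corrected explants, at 9.70 to 48.2 TPM, and was not called (−2.40 ± 0.68, limma adjusted p = 0.095).

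**Figure D4:**
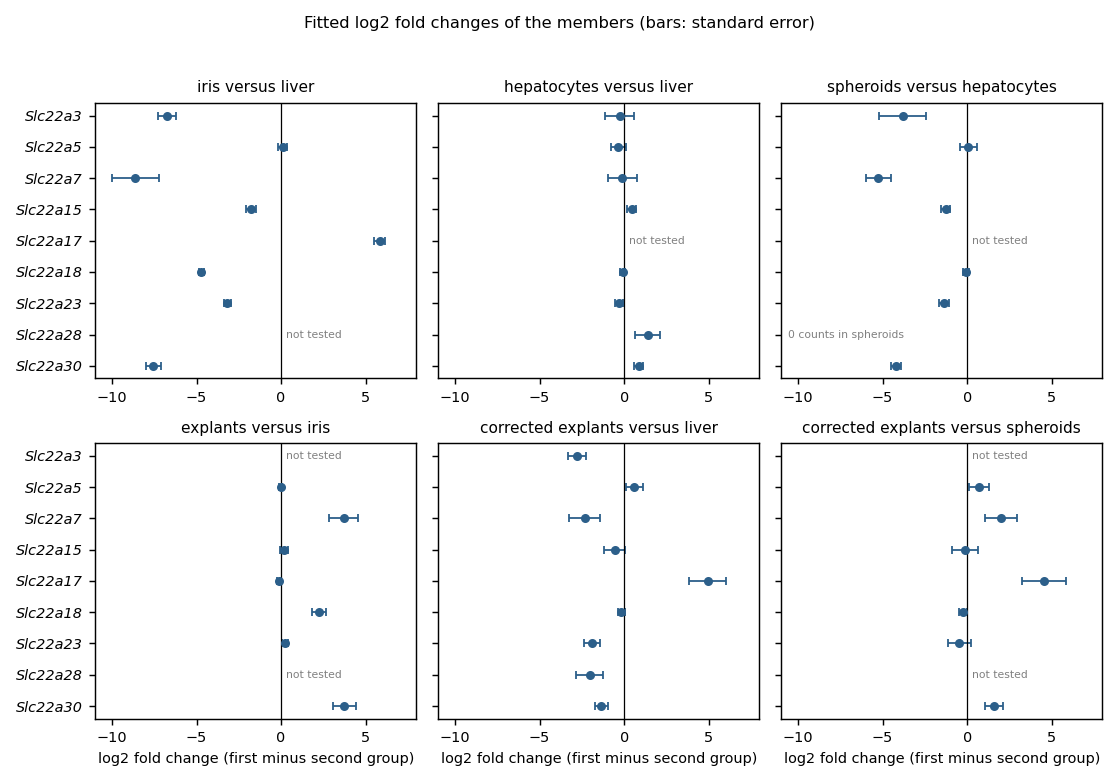
Fitted log2 fold changes of the members on the horizontal axis, first minus second group, with bars for the standard error, in the 6 comparisons. Slc22a18 lay near 0 wherever cells of liver origin were compared, Slc22a7 and Slc22a30 were low in iris and in spheroids, and Slc22a28 in spheroids is left out because both samples had 0 counts.

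Lists of related genes give the setting of the members. These lists, like the members, were written with earlier results known. Of 14 other uptake carriers tested in spheroids against hepatocyte preparations 5 were called lower and 2 higher, with a median log2 fold change of −0.83 where that of all genes was 0.01. Slco1a1, an organic anion uptake carrier, had the lowest value at −7.17 ± 0.35 (edgeR, adjusted p = 2e-05), and Slc19a1, the reduced folate carrier, the highest at 2.24 ± 0.26 (edgeR, adjusted p = 0.00094). Of 15 efflux pumps 4 were called lower and 2 higher, with a median of −0.75. Abcb11, the bile salt export pump, was lower (−2.26 ± 0.26, edgeR adjusted p = 0.00090), and Abcb1a, a multidrug pump, was higher (2.71 ± 0.32, edgeR adjusted p = 0.00098).

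Of 9 genes of the carnitine system, which serves the substrate of Slc22a5, 2 were called lower and 1 higher in spheroids, with a median of −0.74. Crot, a peroxisomal acyltransferase, was lower (−1.20 ± 0.33, edgeR adjusted p = 0.032), and Cpt1b, a carnitine palmitoyltransferase of muscle, was higher (2.06 ± 0.64, edgeR adjusted p = 0.047). Each of these 2 calls was lost under 4 of 11 alternatives, for Crot without hepatocyte preparation 2 or 3 or spheroid sample 1, and for Cpt1b without any hepatocyte preparation or spheroid sample 2. Of 17 transporter regulators 6 were called lower and 1 higher, with a median of −0.79. Among them Nr0b2, a nuclear receptor that represses bile acid synthesis, fell furthest (−4.92 ± 0.66, edgeR adjusted p = 0.0051), and Nfe2l2, the oxidative stress factor NRF2, was higher (1.32 ± 0.21, edgeR adjusted p = 0.0032). In hepatocyte preparations against liver, edgeR and DESeq2 called 0 genes of these 4 lists, and at an unadjusted p under 0.05 edgeR had 4 uptake carriers, 3 efflux pumps, 3 carnitine genes and 1 regulator.

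In corrected explants against liver, 3 of 15 uptake carriers were called lower and 2 higher, 2 of 16 efflux pumps lower and 2 higher, and 3 of 18 regulators lower and 0 higher. None of 9 carnitine genes was called by limma, and 6 had an unadjusted p under 0.05. The 3 regulators were Cebpa (−2.04 ± 0.29), Ppara (−2.23 ± 0.47) and Rxra (−1.97 ± 0.28), with limma adjusted p = 0.0032, 0.014 and 0.0030, and the call of Ppara was lost without liver 2 or 3 and that of Rxra with the deposited corrected values (limma adjusted p = 0.078). None of 15 hepatocyte markers was called by limma, 11 had an unadjusted p under 0.05, and their median was −0.23 where that of all genes was 0.59. Macrophage markers, at 1048 to 2877 summed TPM in explants before correction and 664 to 1192 in liver, were called higher in 6 of 10 cases and lower in 1, and their part in the members' levels was not tested. Against iris, 12 of 15 uptake carriers, 10 of 15 efflux pumps, 8 of 8 carnitine genes and 13 of 17 regulators were called higher in liver and 3, 4, 0 and 0 higher in iris, and in explants against iris 8 of 15, 9 of 16, 2 of 9 and 9 of 16 were called higher and 0 lower.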

How the data were processed

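RNA of 16 mouse samples was sequenced by the authors with Smart-seq3, in 3 technical libraries per sample. The authors mapped reads with TopHat2 to mm10 (GRCm38), removed duplicates by molecular identifier and counted exon reads per gene with featureCounts 1.4.6-p5 without strand. Reads over several genes counted for each, and reads mapping to several places were not counted. The deposited counts equal the sum of the technical libraries. TPM, as deposited by the authors, could be recomputed exactly from the counts with gene lengths. The deposited corrected values (signal in units of TPM) have an iris share subtracted by the authors.

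The members and gene lists were chosen with earlier results of these data known. Named genes are the members, other measured Slc22 genes (1 is not reported here), and genes of the 4 related lists. All went through the same fits, and those of the members serve as description. Counts were fitted with edgeR 4.0.16 (filterByExpr, TMM, quasi-likelihood, 2 groups per fit) in R 4.3.3, with DESeq2 1.42.0 as an alternative. Standard errors of edgeR differences were derived from the test, as the absolute log2 difference divided by the square root of its F statistic. Corrected explants were fitted with limma 3.58.1 with trend on log2(TPM + 1), on genes with a mean of 1 TPM in a group. Both were tested on simulated data with large changes in well-expressed genes and without iris subtraction. Those simulations do not cover genes at few counts or the error of the correction. Promoters came from RefSeq on GRCm38.p6, and promoter pairs were aligned globally with Biopython 1.88. Shared sequence was searched in GENCODE M21. Promoters were found for 8 of the 9 members. Same-numbered samples of different groups were not paired, as the correlations of their deviations ran from −0.127 to 0.162. Depth was 2718518 to 6789648 counts per sample. Other scalings, filters, pseudocounts, iris shares and left-out samples were tried.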

Additional observations from a re-analysis of the deposited data

Results flagged for a closer look

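Among the 5 explants, the members were examined for a sample far from the others, before and after iris correction. Slc22a7 after correction had a gap of 0.842 of the whole range between explant 1, at 2.15 TPM, and the nearest of the other 4, which lay between 23.6 and 27.6 TPM. Slc22a3 after correction had a gap of 0.81 of the range between explant 4, at 1.69 TPM, and the next explant, at 0.322 TPM, and explant 4 had 3 counts of this gene. Gaps over 0.71 count as far for 5 samples. Chance gives about 1 in 20 such groups, and 18 were examined.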

How the results depend on the processing

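Of 593 refitted log2 fold changes of members, 566 moved by no more than the spread between replicates and 27 moved by more, of which 10 under library size alone, and no called value changed sign. Library size alone moved the median of all genes by 0.68 and raised the share of calls that were higher from 57.4% to 77.5% for iris against liver, and by 0.26 and from 47.4% to 65.6% for spheroids against hepatocyte preparations. Group means from a single technical library moved beyond the spread in 8 of 45 cases.

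The cause was not tested for the following changes. For hepatocyte preparations against liver, 332 genes were called, 647 by DESeq2, 1188 without a filter and 1121 in one fit of all 5 groups, and 5 to 585 with a sample left out. For spheroids against hepatocyte preparations, 3 to 6 members were called with a sample left out, against 5. For explants against iris these were 0 to 3 members and 410 to 1187 genes, against 3 and 1001, and the low values came from leaving out an iris. For corrected explants against liver, 4 members and 3047 genes were called, 7 and 10229 before correction, 0 and 1435 with the deposited values, 2 members with least-squares shares, and 0 to 4 members and 1079 to 3969 genes with a sample left out, where the values without each liver were 2, 0 and 1 members. For corrected explants against spheroids, 0 members and 1208 genes were called, 3 and 8834 before correction, 483 genes with the deposited values, and 0 to 1 member and 482 to 1406 genes with a sample left out.

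With the replicate number as a replicate block, 539 genes were called for hepatocyte preparations against liver and 1 member for explants against iris, and 0 members and 0 genes for corrected explants against liver and 0 genes against spheroids, fits in which only numbers present in both groups inform the difference. Under this block the calls of Nr0b2 in spheroids (edgeR, adjusted p = 0.073), of Slc22a27 in explants against iris (0.072) and of Cebpa, Ppara and Rxra in corrected explants (limma, 0.283, 0.283 and 0.285) were lost, and Slc22a26 was called lower in spheroids (edgeR, 0.024). Counting limits Slc22a28 and Slc22a3, which had at most 5 counts in any explant, iris or spheroid sample.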
